A study of Homo sapiens with 18 samples.

Results

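SKOV-3 is an established human ovarian carcinoma cell line whose parent cells lack the luteinizing hormone receptor (LHR), and LHR+ cells are SKOV-3 cells stably transfected to express it. The comparison described here is the step from 4 h to 8 h of incubation with luteinizing hormone (LH), that is, the 3 arrays of LHR+ cells with LH at 50 ng/ml for 8 h (LH8) against the 3 arrays of LHR+ cells with the same LH for 4 h (LH4), over all 54675 probe sets of the Affymetrix U133 Plus2 array. These 6 arrays are part of a series of 18, and the LHR+ cells without LH (3 arrays), LHR+ cells with LH for 1 h (LH1) or 20 h (LH20) and LHR- cells, the mock-transfected control of the methods (3 arrays each), gave the level before LH, the earlier and later values and the effect of the receptor alone. Every group of the step carried the receptor from stable transfection, and the methods describe 3 independent replicates per group. No array of cells kept without LH for 4 or 8 h was used here, so time in culture and time with LH cannot be told apart. RNA was taken from the whole culture, so fewer cells in a state and less RNA per cell cannot be told apart either.

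LHR is a G protein-coupled receptor that raises cAMP, activates protein kinase A and the CREB transcription factors and, at higher hormone levels, releases inositol phosphates. In the ovary LH acts on theca, granulosa and luteal cells and triggers ovulation and luteinization, with rapid and short-lived induction of transcription factors such as the NR4A nuclear receptors. Cells limit such a signal with genes that it induces itself, among them cAMP phosphodiesterases, RGS proteins and dual-specificity phosphatases, so a fall of early genes after some hours is a known feature of the pathway.

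From LH4 to LH8, 238 probe sets were up-regulated (0.435% of all) and 400 were down-regulated (0.732%), which is 1.17% together. A probe set was called when limma gave p under 0.05 with a Benjamini-Hochberg adjusted p under 0.1 over all probe sets, the ratio of the geometric means reached 2-fold, and the triplicates did not overlap. Complete separation of the triplicates alone held for 21.5% of probe sets. Counting 1 probe set per gene, the one with the highest mean intensity, the step raised 110 of 19775 genes (0.556%) and lowered 103 (0.521%), so the excess of falls lay in probe sets that are not the brightest of a gene or carry no single gene symbol. The balance between rises and falls also depended on the scale of the arrays. As deposited, 37.3% of the calls were rises and the median log2 change of all probe sets was -0.03. With all array medians made equal that median was 0.07, a shift of 0.10, and 323 probe sets were up-regulated against 286 down-regulated (53% rises), while quantile normalization gave 304 and 328 (48.1%). Neighbouring steps held more calls, as 2335 probe sets (4.27%) were called from LH8 to LH20 and 832 (1.52%) from LH1 to LH4.

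To place the step in the time course, each called probe set was set against LHR+ cells without LH. Of the 400 that fell, 137 had been up-regulated at LH4 and thus returned toward the untreated level, 75 were new at 8 h, meaning not called at LH4 and below LHR+ at LH8, 3 continued a fall already called at LH4, and 185 fitted none of these courses. Of the 238 that rose, 77 returned from a down-regulation at LH4, 43 were new at 8 h, 2 continued upward and 116 fitted none. Returning and continuing probe sets thus numbered 214 and 5. Because the LH4 arrays enter LH4/LHR+ and LH8/LH4 with opposite sign, these counts are a description, and chance deviations of the LH4 arrays favour the returning course. Of the 692 probe sets up-regulated at LH4 (1.27% of all), 19.8% fell and 0.289% rose over the step, and 236 were still called up at LH8 (background 0.889%) with no call over the step. Of the 340 down-regulated at LH4 (0.622%), 22.6% rose and 0.882% fell.

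**Figure D1:**
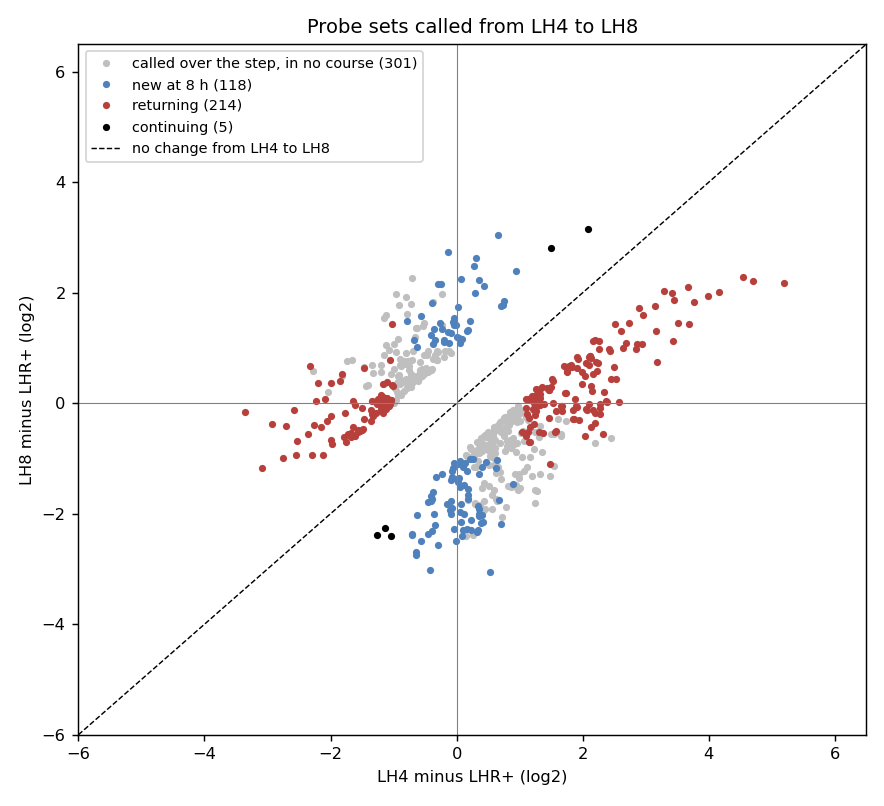
Log2 difference of LH4 (x axis) and LH8 (y axis) from LHR+ cells without LH for the 638 probe sets called from LH4 to LH8, 1 point each, coloured by course. Points right of the dashed line of no change fell over the step, and the returning ones on that side (137) had a median of 1.91 at LH4 and 0.21 at LH8. The continuing course held 5 points. A further 118 points were new at 8 h, that is, called against LHR+ at LH8 but not at LH4.

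The immediate-early transcription factors, genes that a signal induces without new protein synthesis, had the lowest median of the lists examined. Of 27 such factors on the array, 4 were down-regulated (0.521% of all genes) and none was up-regulated (0.556% of all genes), 20 were lower and 7 higher at LH8, and the median log2 difference was -0.42 beside 0.00 over all genes. The 4 were NR4A1, NR4A2, NR4A3 and FOSB, 3 orphan nuclear receptors and a Fos-family partner of Jun.

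NR4A3 showed the largest fall of these. Its intensities in LHR+ cells without LH were 136, 112 and 189, at LH4 3554, 3885 and 3725, and at LH8 689, 671 and 633. The LH8 arrays lay below every LH4 array and still above every untreated array, with a mean of 3721 ± 166 at LH4 and 664 ± 29.0 at LH8 (SD, n = 3). The fall was 5.59-fold, a log2 fold change of -2.48 ± 0.24 (SE) with an adjusted p of 0.000127. At LH20 the mean was 504 ± 49.8, still up-regulated against LHR+.

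NR4A2 read 768, 822 and 749 at LH4 and 162, 217 and 245 at LH8, against 43.5, 72.1 and 57.9 without LH. It fell 3.78-fold (adjusted p = 0.000451), remained above the untreated arrays, and a dimmer probe set of the gene fell by 2.05 on the log2 scale. FOSB read 197, 182 and 112 at LH4 and 34.7, 32.0 and 39.4 at LH8, a 4.42-fold fall with an adjusted p of 0.0292, after its highest mean of 480 at LH1. NR4A1 was dimmer, with 136, 115 and 95.8 at LH4 and 67.6, 57.5 and 36.4 at LH8. Its 2.18-fold fall had an adjusted p of 0.0537 and was lost when LH4 replicate 1, LH4 replicate 2 or LH8 replicate 3 was left out. Without LH4 replicate 1 or without LH4 replicate 2, 2 factors of the list were called in place of 4.

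Other factors were lower without meeting the fold threshold. MAFF, a small Maf protein, had a log2 difference of -0.96 (adjusted p = 0.00187), ATF3, a stress-induced repressor, -0.83 (adjusted p = 0.000673), and MYC -0.62 (adjusted p = 0.0369). EGR1 had already passed its peak, with means of 9631 at LH1, 380 at LH4 and 302 at LH8, the last 2 below the 1410 of untreated cells. FOS was likewise high only at LH1 (mean 73.3) and lay between 3.16 and 19.0 on all LH4 and LH8 arrays. EGR1 and FOS were thus at or below the untreated level by 4 h, whereas NR4A2 and NR4A3 had their highest means at 4 h. FOSB lay between these, with a lower mean at 4 h than at 1 h (164 against 480) and the called fall after it.

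The promoter of NR4A3 is shown because the gene had the largest fall among bright probe sets of 1 symbol that are also the brightest of their gene, and because CREB proteins bind a motif with the letters TGACGTCA or its shorter core TGACG. The 150 bases before its start are given from RefSeq (GRCh38.p14), with the core on either strand in capitals, at 109, 91, 83 and 25 bases before the start:
NR4A3 chr9:99821735-99821884 (+): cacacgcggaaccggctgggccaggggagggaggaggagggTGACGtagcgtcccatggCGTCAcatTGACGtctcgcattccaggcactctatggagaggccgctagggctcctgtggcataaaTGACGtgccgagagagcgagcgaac
The core TGACG occurred on either strand in the 250 bases before the start in 15 of the 41 returning, down-regulated genes with a promoter in the table (36.6%) and in 24.9% of 27305 genes. The full letters TGACGTCA, which contain the core, occurred in 1 of the 41 (2.44%) and in 2.03% of all. The core was not particular to falling genes. It occurred in 27 of 68 G2/M and mitosis genes (39.7%), most of which were higher at LH8, and the full letters in 5 of 68 (7.35%). Among returning, up-regulated genes the core occurred in 6 of 29 (20.7%) and the full letters in 1 of 29 (3.45%). These are matches of letters and not measured binding.

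The genes that restrain cAMP and MAP kinase signalling also fell in part. Of 33 cAMP signaling genes 2 were down-regulated (beside 0.521% of all genes), PDE4D and RGS2, and none was up-regulated (beside 0.556%), with 24 lower and 9 higher and a median of -0.10. PDE4D encodes a phosphodiesterase that breaks down cAMP. It read 4503, 4451 and 4580 at LH4 and 1645, 1932 and 1713 at LH8, so the groups did not overlap, and the LH8 arrays stayed above the 655, 564 and 523 of untreated cells. The fall was 2.56-fold (log2 fold change -1.36 ± 0.13 SE, adjusted p = 0.000125), and a dimmer probe set of PDE4D fell by 2.43 on the log2 scale.

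RGS2, which speeds the inactivation of Gq-type G proteins, returned to the untreated level. It read 1486, 1486 and 1244 at LH4 and 419, 394 and 475 at LH8, which overlapped the 399 to 487 of untreated cells. The fall was 3.27-fold with an adjusted p of 2.4e-05. Other members of the list were lower by less than 2-fold: GEM, a small GTPase of the RGK family, had a log2 difference of -0.73 (adjusted p = 0.00689), CREM, a CREB-family factor with repressor isoforms, -0.61 (adjusted p = 0.0245), AKAP12, a scaffold of protein kinase A, -0.59 (adjusted p = 0.0266) and SIK1, a kinase that holds CREB coactivators in the cytoplasm, -0.47 (adjusted p = 0.0101). PDE4B, a relative of PDE4D, was not called, with means of 82.8 ± 17.8 at LH4 and 69.8 ± 22.2 at LH8 (SD, n = 3), and reached 230 ± 16.9 at LH20. PDE7A, another cAMP phosphodiesterase, had a log2 difference of 0.62 (adjusted p = 0.00186) in its brightest probe set and 1.59 in a dimmer one that was called.

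Of 20 MAP kinase feedback genes 2 were down-regulated (beside 0.521% of all genes) and none up-regulated (beside 0.556%), and the median was -0.32. DUSP5, a nuclear phosphatase of ERK, read 4188, 4102 and 4163 at LH1, 1768, 1826 and 1734 at LH4 and 395, 565 and 518 at LH8. Each of these groups lay below the one before it, and the LH8 arrays lay below the 766 to 812 of untreated cells as well, though that difference was not called. Its fall from LH4 to LH8 was 3.64-fold (adjusted p = 1.57e-05). PHLDA1, a pleckstrin homology-like protein often induced by growth factors, took another course, with 1976, 1885 and 1824 at LH4 and 696, 771 and 714 at LH8 against 3470, 2760 and 2658 without LH. It was thus new at 8 h in its brightest probe set, and a dimmer probe set of the gene continued a fall called at LH4. SPRY2, an inhibitor of receptor tyrosine kinase signalling, had a log2 difference of -0.89 (adjusted p = 0.00297) and was not called.

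The cytokines and chemokines held the most called genes among the lists of secreted factors. Of 34 on the array, 6 were down-regulated (IL6, IL11, CXCL1, CXCL2, CXCL3 and CXCL8), beside 0.521% of all genes, and none up-regulated, beside 0.556%. By sign alone 26 were lower and 8 higher, and the median was -0.34. Only 13 of the 34 were brighter than the median probe set, and no member beyond the 6 had an adjusted p under 0.1. IL6, a cytokine that signals through gp130 and STAT3, read 1133, 1075 and 1280 at LH4 and 232, 244 and 253 at LH8, against 41.0, 50.3 and 57.0 without LH. It fell 4.75-fold (adjusted p = 6.88e-05) and was still up-regulated at LH8. IL11, of the same receptor family, peaked later than IL6. Its means were 122 ± 21.5 at LH1, 1026 ± 63.2 at LH4 and 346 ± 27.6 at LH8 (SD, n = 3), and it fell again from LH8 to LH20, to 143 ± 37.3.

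CXCL1, a ligand of CXCR2 that attracts neutrophils, had the smallest adjusted p of the named falls. It read 3229, 3434 and 2946 at LH4 and 846, 751 and 667 at LH8, above but near the 572, 540 and 548 of untreated cells, and the 4.25-fold fall had an adjusted p of 5.12e-07. CXCL2 fell 3.60-fold from a mean of 1663 ± 80.2 to 462 ± 50.5, CXCL3 3.13-fold from 637 ± 28.8 to 206 ± 43.6 and CXCL8 2.70-fold from 1047 ± 101 to 387 ± 34.8 (SD, n = 3). None of these 4 chemokines reached the 2-fold threshold against LHR+ at LH8, so none was called there. CXCL1, CXCL2 and CXCL8 still lay above every untreated array. Their log2 differences from LHR+ were 0.44, 0.65 and 0.98 (limma adjusted p of 0.0225, 0.0173 and 0.0127). CXCL3 overlapped the untreated arrays (0.52, adjusted p = 0.151). CXCL1, CXCL2 and CXCL3 are close copies of one another, and the probes may share signal among them, so their separate falls are uncertain. The 6 cytokines kept their calls in all 17 alternatives examined.

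The promoters of CXCL1, CXCL2 and CXCL3 are shown because the 3 genes on chromosome 4 fell together and each holds the NF-kB motif on both strands, with overlap, in the stretch in capitals. The 150 bases before each start, on the strand of the gene, were (RefSeq, GRCh38.p14):
CXCL1 chr4:73869243-73869392 (+): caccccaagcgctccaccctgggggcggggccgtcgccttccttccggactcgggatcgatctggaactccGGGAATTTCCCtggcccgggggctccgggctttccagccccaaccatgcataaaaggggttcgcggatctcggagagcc
CXCL2 chr4:74099196-74099345 (-): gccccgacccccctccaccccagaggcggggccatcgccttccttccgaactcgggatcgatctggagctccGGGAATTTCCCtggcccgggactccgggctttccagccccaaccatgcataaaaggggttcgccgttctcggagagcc
CXCL3 chr4:74038690-74038839 (-): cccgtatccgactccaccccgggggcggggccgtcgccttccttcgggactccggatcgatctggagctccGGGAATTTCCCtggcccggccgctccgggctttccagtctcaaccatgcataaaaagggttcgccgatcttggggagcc
The matches began 79 and 78 bases before the start in CXCL1 and CXCL3 and 78 and 77 in CXCL2. The NF-kB motif occurred on either strand in the 250 bases before the start in 8 of the 41 returning, down-regulated genes (19.5%) and in 6.87% of 27305 genes. Of 17 NF-kB feedback genes none was called by limma over the step, 3 were lower and 2 higher at an unadjusted p under 0.05, and the median was -0.17.

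Growth factor ligands moved in both directions, with 15 genes lower and 15 higher of 30 and a median of -0.03, but the 3 called members all fell (beside 0.521% of all genes). BDNF, a neurotrophin, read 5152, 5445 and 5120 at LH4 and 1935, 2108 and 1502 at LH8, a 2.86-fold fall with an adjusted p of 0.000105. HBEGF, an EGF receptor ligand, fell 2.42-fold from 1668 ± 171 to 688 ± 58.1, and EDN1, the vasoconstrictor endothelin, 2.40-fold from 1725 ± 185 to 719 ± 82.9 (SD, n = 3). EDN1 had been highest at LH1, with a mean of 4026, as had CCN2, a matricellular target of YAP, with 5962.

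CCN2 fell from 2808 ± 251 to 1160 ± 123 and was the only 1 of 19 YAP and TEAD targets called (beside 1.08% of all genes, either direction). BMP2, a ligand of the BMP receptors, fell from 1299 ± 62.5 to 554 ± 24.7 (SD, n = 3). It was the only 1 of 45 genes of the TGF-beta, activin and BMP pathway called (beside 1.08% of all genes). MSX2, a homeobox repressor downstream of BMP signalling, read 1187, 1332 and 1108 at LH4 and 345, 328 and 350 at LH8, which lay within the range of untreated cells (322 to 426). Its fall was 3.53-fold with an adjusted p of 2.7e-05. PLPP3, a surface phosphatase that removes lysophosphatidic acid, read 3750, 3925 and 3835 at LH4 and 1220, 1191 and 1426 at LH8, still above the 583 to 605 of untreated cells. INSIG1, which holds the SREBP machinery in the endoplasmic reticulum, was at 4004 ± 107 and 2214 ± 269 (SD, n = 3), a difference of 1.82-fold that was below the threshold.

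**Figure D2:**
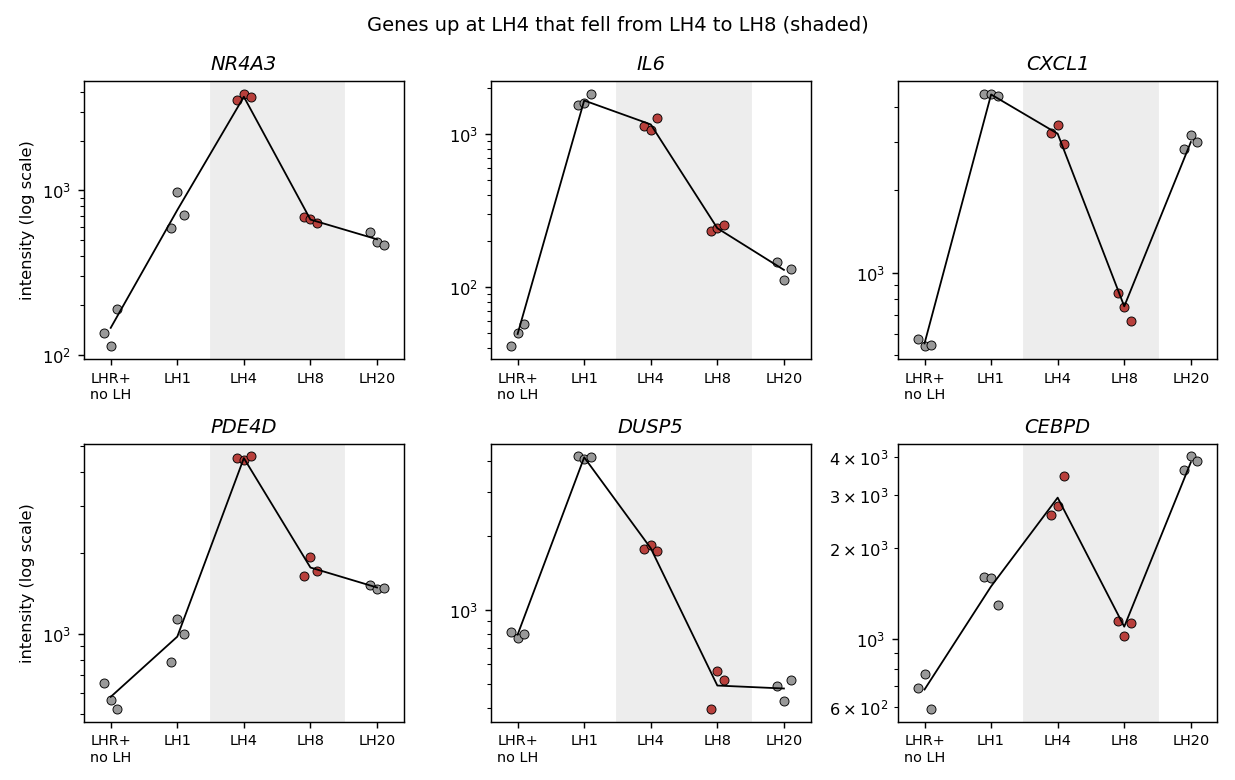
Intensity of each array (points, log axis) and group mean (line) for NR4A3, IL6, CXCL1, PDE4D, DUSP5 and CEBPD in LHR+ cells without LH (no LH) and at LH1, LH4, LH8 and LH20, with the step from LH4 to LH8 shaded. In each panel the 3 LH8 arrays lie below the 3 LH4 arrays, and CXCL1 and CEBPD rise again at LH20 (means of 2986 and 3840).

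The response to LH at 1 h shares no array with the step and was followed through it. Of the 242 probe sets up-regulated at LH1 (0.443% of all), 53 were down-regulated from LH4 to LH8 (21.9%, beside 0.732% of all probe sets) and 2 were up-regulated (0.826%, beside 0.435%), and 197 of the 242 were lower at LH8 than at LH4. Counted per gene, 21 of 57 (0.288% of all genes were up-regulated at LH1) fell, which is 36.8% (beside 0.521% of all genes), and 1 rose. With the array medians made equal 35 probe sets fell in place of 53.

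Some of the returning genes came back later. Of 51 genes that returned downward by their brightest probe set, 12 were still up-regulated at LH8 (background 0.85%). At LH20, 21 of the 51 were up-regulated (background 3.68% of genes). All 51 had been up-regulated at LH4, so the closer reference is the 232 genes up-regulated there. Of those 232, 95 were still up-regulated at LH8 and 113 were up-regulated at LH20. From LH8 to LH20, 7 of the 51 rose (background 2.18%) and 3 fell further (background 2.1%). The LH8 arrays enter LH8/LH4 and LH20/LH8 with opposite sign, so chance low values at LH8 favour the later rise, and the counts from LH8 to LH20 are a description. The 7 included CXCL1, RGS2, SOCS3 and CEBPD. CEBPD, a C/EBP transcription factor of the acute-phase response, read 2576, 2759 and 3472 at LH4, 1146, 1024 and 1134 at LH8 and 3628, 4017 and 3874 at LH20, so that the LH8 arrays lay below the groups on either side. SOCS3, the feedback inhibitor of gp130 signalling, had means of 2017 ± 468, 750 ± 55.2 and 2076 ± 342 at LH4, LH8 and LH20, and RGS2 1405 ± 140, 429 ± 41.5 and 1544 ± 172 (SD, n = 3). For each of these 4 genes the rise from LH8 to LH20 had an adjusted p of at most 0.00026. HBEGF and IL11 were among the 3 that fell further.

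The G2/M and mitosis genes formed the largest rising group. Of 80 genes, 10 were up-regulated from LH4 to LH8 (beside 0.556% of all genes) and none was down-regulated (beside 0.521%), 69 were higher and 11 lower, and the median log2 difference was 0.39 beside 0.00 over all genes. All 10 were returning, as 42 of the 80 had been down-regulated at LH4 (background 0.799% of genes). Of those 42, 41 were higher at LH8, 34 with complete separation of the arrays, and they had regained a median of 50.4% of their log2 fall. The LH4 arrays both select the 42 and form the baseline of the rise. Chance low values at LH4 therefore favour a return, and these values are a description. At LH8, 4 of the 42 were still called (background 0.587%). Of the same 42, 39 had a lower level at LH20 than at LH8, although only 2 of these differences were called, and 29 were called below LHR+ at LH20 (background 3.72% of genes). Over all 80 genes the median difference from LHR+ was -1.04 at LH4, -0.56 at LH8 and -0.95 at LH20.

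The 10 genes cover several mitotic machines. KIFC1, a minus-end kinesin that clusters centrosomes, read 173, 146 and 146 at LH4 and 433, 382 and 386 at LH8, against 847, 722 and 725 without LH. NDC80, the outer kinetochore protein that holds microtubules, read 669, 662 and 728 at LH4 and 1767, 1441 and 1999 at LH8. In both genes the LH8 arrays lay between the LH4 and the untreated arrays, and the rises were 2.57-fold (adjusted p = 0.00222) and 2.51-fold (adjusted p = 0.000176).

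CENPI, a protein of the inner kinetochore, had means of 115 ± 40.2 and 254 ± 62.7, and SGO2, which protects centromeric cohesin, 258 ± 42.0 and 579 ± 34.5 (SD, n = 3). ASPM, a spindle pole protein, rose 2.11-fold from 909 ± 72.9 to 1933 ± 336, HMMR, a spindle and hyaluronan receptor protein, 2.04-fold from 668 ± 26.8 to 1362 ± 111, and FAM83D, which recruits casein kinase to the spindle, 2.02-fold from 349 ± 63.1 to 708 ± 128 (SD, n = 3). PSRC1, a microtubule-binding protein, rose 2.37-fold and BORA, an activator of Aurora A, 2.23-fold. CCNF, a cyclin-like F-box protein, read 825, 979 and 847 at LH4 and 1938, 1835 and 1777 at LH8 and rose 2.10-fold (adjusted p = 0.000716).

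Many others stayed short of 2-fold: 36 of the 80 had an adjusted p under 0.1 and were higher (background 2.47% of genes), and none was lower at that threshold (background 2.71%). CDCA2 and NCAPG, which act on mitotic chromatin and in condensin, had log2 differences of 1.00 (adjusted p = 0.000125) and 0.99 (adjusted p = 9.3e-05). KIF11, the spindle kinesin Eg5, had 0.86 (adjusted p = 0.000246) and PLK1, the master mitotic kinase, 0.74 (adjusted p = 0.00427). CCNB1, cyclin B1, had 0.40 (adjusted p = 0.0406), and CDC20, the activator of the anaphase-promoting complex, was at 1735 ± 232 and 2060 ± 150 (SD, n = 3) with an adjusted p of 0.464. With array medians made equal 14 of the list were called and without LH8 replicate 3, 7.

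**Figure D3:**
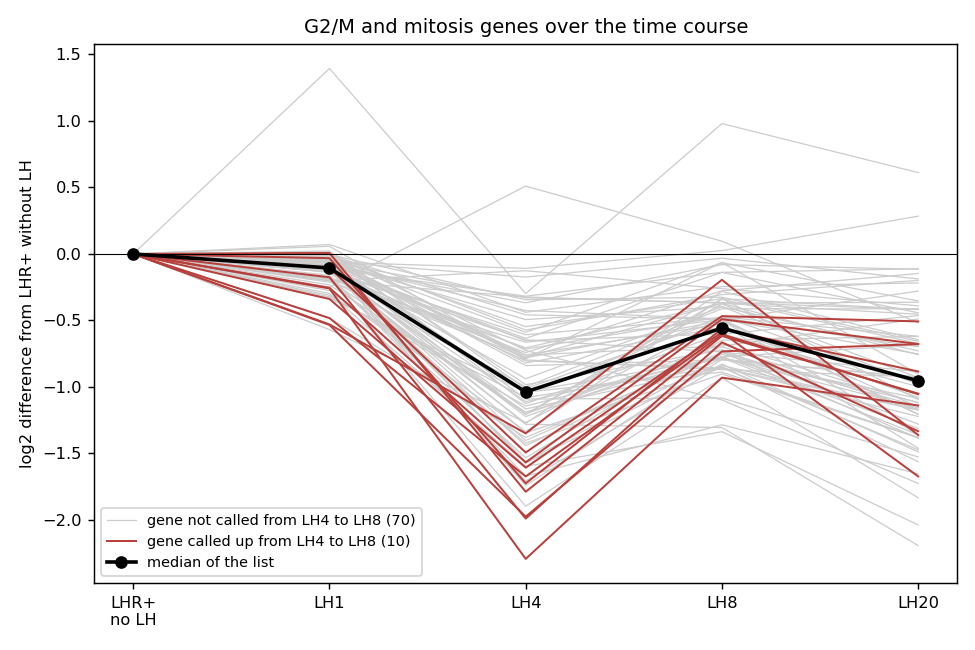
Log2 difference from LHR+ cells without LH for 80 G2/M and mitosis genes (thin lines, the 10 called up from LH4 to LH8 in red) and their median (thick line) at LH1, LH4, LH8 and LH20. The median was -1.04 at LH4, -0.56 at LH8 and -0.95 at LH20.

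The promoters of CCNF, ASPM and HMMR are shown since CCAAT boxes and the cell cycle homology region, searched here as TTTGAA, are the known elements of G2/M promoters. They are the 200 bases before the start on the strand of the gene (RefSeq, GRCh38.p14), with CCAAT and TTTGAA on either strand in capitals, so that ATTGG and TTCAAA mark the other strand:
CCNF chr16:2429247-2429446 (+): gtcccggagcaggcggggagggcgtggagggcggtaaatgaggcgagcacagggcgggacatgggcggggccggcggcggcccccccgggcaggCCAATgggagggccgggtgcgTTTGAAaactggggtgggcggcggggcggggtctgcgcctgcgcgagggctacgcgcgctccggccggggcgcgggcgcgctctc
ASPM chr1:197146670-197146869 (-): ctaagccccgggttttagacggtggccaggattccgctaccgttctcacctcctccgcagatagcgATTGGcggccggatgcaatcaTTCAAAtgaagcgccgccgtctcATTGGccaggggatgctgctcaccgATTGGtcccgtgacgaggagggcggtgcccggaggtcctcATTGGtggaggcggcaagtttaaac
HMMR chr5:163460432-163460631 (+): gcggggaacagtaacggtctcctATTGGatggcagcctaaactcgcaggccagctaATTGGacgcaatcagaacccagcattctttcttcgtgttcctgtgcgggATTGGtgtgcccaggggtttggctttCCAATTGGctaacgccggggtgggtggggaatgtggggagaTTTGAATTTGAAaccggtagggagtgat
In CCNF the 2 matches lay 106 and 85 bases before the start. CCAAT occurred in the 250 bases before the start in 55 of the 68 genes of the list with a promoter in the table (80.9%) and in 37.0% of all 27305 genes, and TTTGAA in 35 of 68 (51.5%) and in 16.1%. These shares belong to the list as written and do not separate its called members from the others. The called genes also differed among themselves, counted in 1 promoter window per gene. Besides those shown, BORA held both elements. KIFC1 and PSRC1 held CCAAT without TTTGAA, and NDC80, CENPI and SGO2 held neither.

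DNA replication and G1/S genes, in contrast, had a median of 0.07, and 2 of 61 were up-regulated (beside 0.556% of all genes). E2F2, an activating E2F, read 40.8, 44.3 and 37.8 at LH4 and 53.4, 113 and 135 at LH8, and E2F8, a repressive one, between 14.0 and 15.8 at LH4 and then 19.9, 38.5 and 40.7. Replicate 1 of LH8 lay nearest to the LH4 arrays in both, and both calls were lost in several alternatives. PIF1, a DNA helicase outside the lists, rose 3.62-fold from 60.9 ± 13.2 to 221 ± 33.2 (SD, n = 3) and fell again to 102 ± 31.7 at LH20. Further genes that returned upward were KLKB1, the precursor of plasma kallikrein, at a mean of 127 ± 7.14 and then at 388 ± 96.5 (SD, n = 3), and MIA, a small secreted protein of melanoma cells, at 16.8, 10.5 and 31.7 and then 60.0, 80.8 and 52.6, where the adjusted p was 0.0457.

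Among list members that returned upward, BMF, a BH3-only protein that binds BCL2, was at 198 ± 46.4 and 444 ± 65.6 (SD, n = 3). It was the only 1 of 20 BCL2 family genes called (beside 1.08% of all genes, either direction). CLDN4, a tight junction protein, read 215, 216 and 199 at LH4 and 595, 408 and 478 at LH8, against 430 to 517 without LH. HMOX1, heme oxygenase, read 364, 262 and 253 and then 697, 590 and 592, with 532 to 653 without LH. In CLDN4 and HMOX1 the LH8 arrays overlapped the untreated ones, whereas those of BMF lay below them (804 to 894) and its mean reached 1154 ± 64.6 at LH20.

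A smaller set moved away from the untreated level between 4 h and 8 h. By brightest probe set 16 genes were new and up-regulated at LH8, and 12 of them were up-regulated at LH20 (background 3.68% of genes). Both calls use the same LHR+ arrays, so chance low values there favour this overlap. ZNF114, a zinc finger protein, had the largest rise of any bright gene by its brightest probe set. It read 538, 569 and 480 at LH4, 2577, 2404 and 2677 at LH8 and 3811, 4523 and 4389 at LH20, with 858, 1038 and 838 without LH. The rise over the step was 4.82-fold (log2 fold change 2.27 ± 0.12 SE, adjusted p = 1.03e-06).

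KIT, the stem cell factor receptor, which in the ovary is found on oocytes and theca cells, read 395, 400 and 325 at LH4 and 1039, 1148 and 1137 at LH8. The LH4 arrays overlapped the untreated ones (352 to 415), the rise was 2.97-fold (adjusted p = 0.000303), and the mean at LH20 was 1170 ± 36.7. KIF26B, a member of the kinesin family, rose 3.01-fold from 185 ± 29.3 to 557 ± 59.1 and was back at 149 ± 26.7 (SD, n = 3) at LH20. A dimmer probe set of PTPRB, a receptor phosphatase, rose by 1.44 on the log2 scale, while its brightest one was at 324 ± 20.2 and 562 ± 110 (SD, n = 3) and not called.

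Several of the new or rising genes belong to the hypoxia response and glycolysis. Of 40 genes of that list 38 were higher at LH8 and 2 lower, with a median of 0.23, but only 3 were up-regulated (HK2, EGLN3 and ANKRD37), beside 0.556% of all genes, and 11 were higher with an adjusted p under 0.1, beside 2.47%. The called count varied from 3 to 1 when single arrays were left out, and without LH8 replicate 2 it was 1. EGLN3, a HIF prolyl hydroxylase, read between 110 and 154 at LH4 and 377, 271 and 371 at LH8, a 2.54-fold rise (adjusted p = 0.00207) that held at LH20 (344 ± 48.5). A dimmer probe set of EGLN3 rose by 1.83 on the log2 scale after a fall called at LH4. HK2, a hexokinase, read 1373, 1274 and 1248 and then 2308, 3040 and 2813, rose 2.08-fold, and was back at 1172 ± 60.0 (SD, n = 3) at LH20.

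MIR210HG, the host transcript of a hypoxia-induced microRNA, read 170, 196 and 162 at LH4 and 716, 594 and 453 at LH8, a 3.28-fold rise (adjusted p = 0.00284), and was outside the list. PDK1, the kinase that closes pyruvate dehydrogenase, had a log2 difference of 0.69 (adjusted p = 0.00556) and KDM3A, a histone demethylase, 0.74 (adjusted p = 0.000682). VEGFA, the angiogenic growth factor, read 3844, 3974 and 4155 and then 5004, 5425 and 3680, with overlapping groups. ANKRD37, an ankyrin repeat protein, was at 924 ± 139 and 1844 ± 51.1 and reached 4395 ± 110 (SD, n = 3) at LH20. Its fold of 2.01 lies at the threshold.

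The promoter of ANKRD37 is shown for the core of the hypoxia response element, ACGTG, in capitals on either strand, in the 200 bases before the start (RefSeq, GRCh38.p14):
ANKRD37 chr4:185396641-185396840 (+): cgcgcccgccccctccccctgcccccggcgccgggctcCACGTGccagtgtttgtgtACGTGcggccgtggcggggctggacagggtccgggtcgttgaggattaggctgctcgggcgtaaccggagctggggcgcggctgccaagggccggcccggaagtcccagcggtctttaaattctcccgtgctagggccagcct
The core lay 162, 161 and 143 bases before the start, the former 2 being the same palindrome on both strands. ACGTG occurred in 24 of the 37 promoters of the list (64.9%) and in 21.7% of 27305 genes. This share is that of the whole list and does not set its called members apart. Counted in 1 promoter window per gene, HK2 held 2 matches, and EGLN3, which rose more than HK2 and ANKRD37, held 0.

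**Figure D4:**
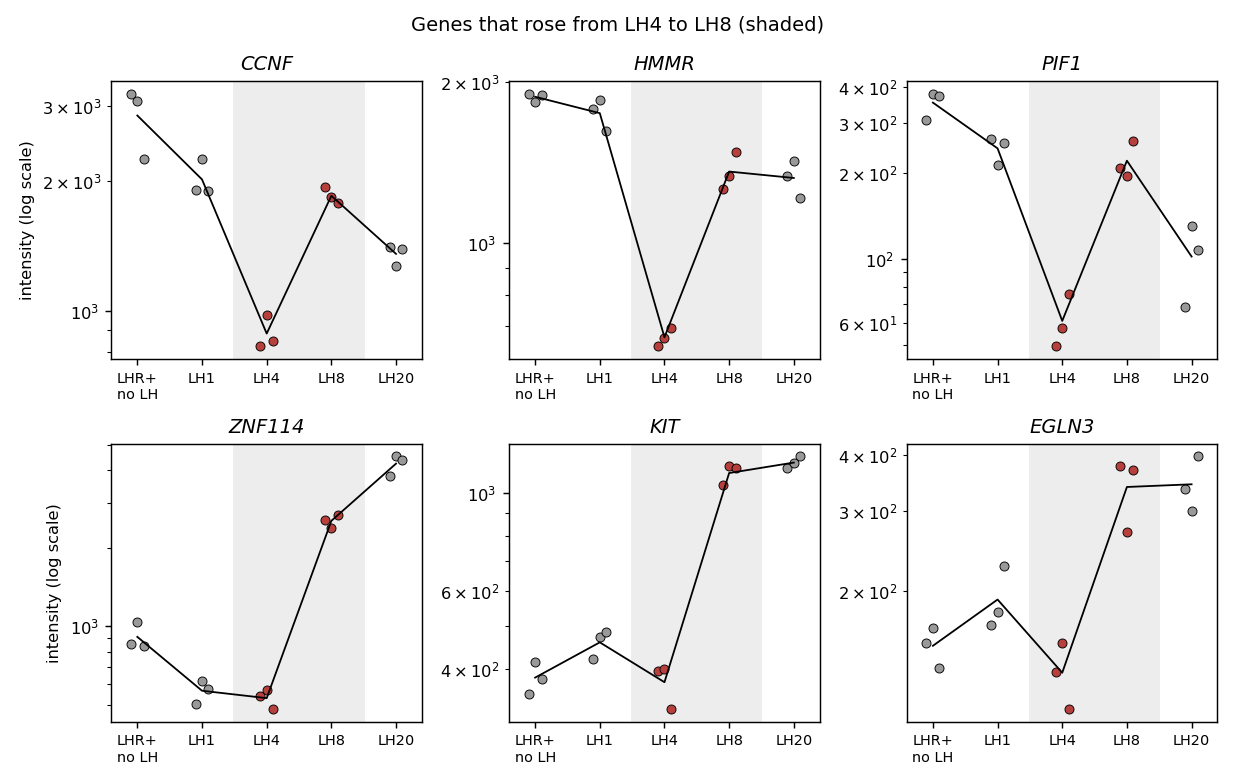
Intensity of each array (points, log axis) and group mean (line) for CCNF, HMMR, PIF1, ZNF114, KIT and EGLN3, with the step shaded. The upper 3 genes were down-regulated at LH4 and returned toward the level without LH, and the lower 3 rose above it at LH8 (ZNF114 to a mean of 2553, KIT to 1108 and EGLN3 to 339).

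Genes that kept moving in the direction called at 4 h were few. ZMAT4, a zinc finger protein, read 36.1, 29.3 and 53.9 without LH, 72.0, 117 and 160 at LH4 and 328, 245 and 257 at LH8, and fell back to 75.7 ± 29.5 (SD, n = 3) at LH20. KYNU, an enzyme of tryptophan breakdown, continued upward in a dimmer probe set (log2 fold change 1.07), and its brightest probe set was at 205, 668 and 1146 on average without LH, at LH4 and at LH8, a step that was not called (adjusted p = 0.0654). EMP1, a tetraspan membrane protein, continued downward in a dimmer probe set (-1.12), and its brightest one was at 2771, 1446 and 769 (log2 difference -0.93, adjusted p = 0.00395). NPAS3, a brain-enriched bHLH-PAS factor, was new and lower at 8 h, with 59.3, 91.6 and 91.9 at LH4 and 40.5, 28.5 and 28.9 at LH8. Of the 15 genes of this course 12 were dimmer than the median probe set.

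Falls in no course included PPARGC1B, a coactivator of estrogen-related receptors, at 176, 180 and 146 and then 62.1, 63.9 and 24.5. ZC3H12C, a putative RNase related to regnase, read 1171, 1164 and 1043 and then 430, 506 and 523. It was the only 1 of 13 mRNA decay genes called (beside 1.08% of all genes, either direction). NIP7, a ribosome assembly factor, fell 2.03-fold from 2557 ± 172 to 1280 ± 283, just past the threshold, and then to 526 ± 52.0 (SD, n = 3) at LH20. It was the only 1 of 39 ribosome biogenesis and MYC genes called (beside 1.08% of all genes, either direction). Of the 39, 27 were lower and 12 higher, with a median of -0.16. Rises in no course included PPFIA4, a liprin, at 125, 77.5 and 103 and then 361, 305 and 269, FSIP2, a protein of the sperm tail, with a 2.93-fold rise, WNT7A with 2.14-fold and ITGA10, an integrin alpha chain, with 2.11-fold (adjusted p = 0.0514).

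**Figure D5:**
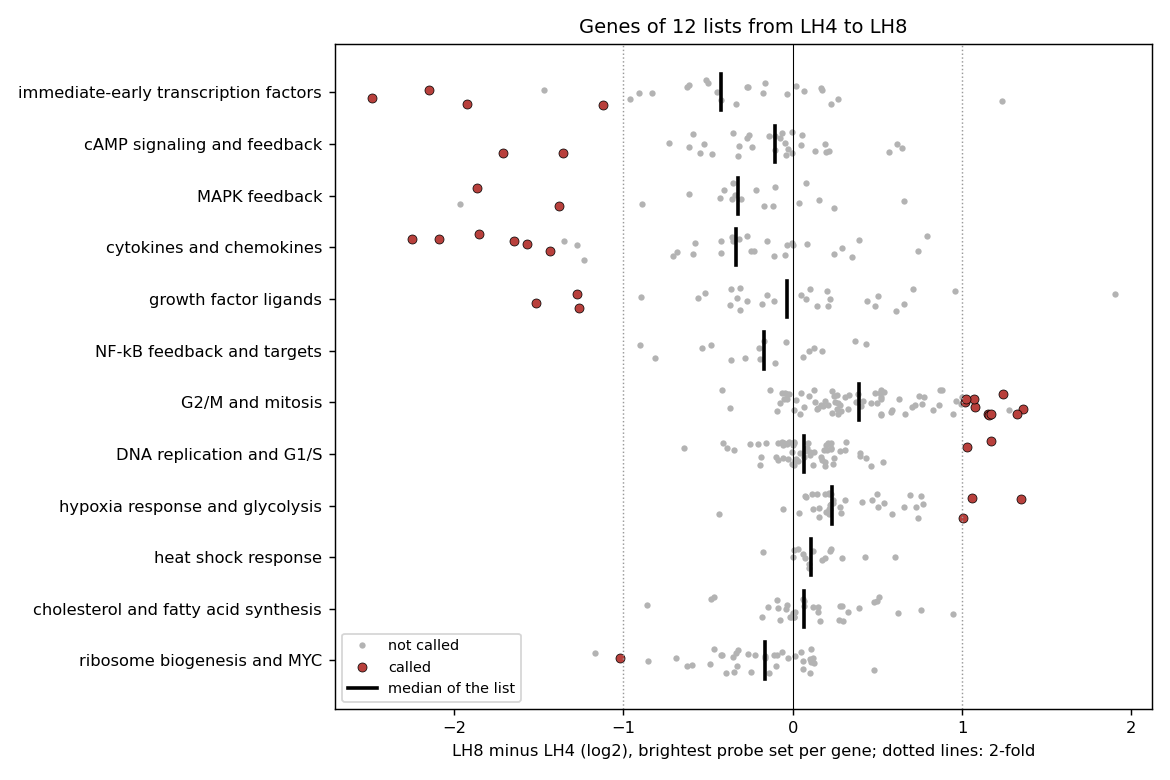
Log2 difference of LH8 from LH4 (x axis) for the genes of 12 lists, 1 point per gene by its brightest probe set, with called genes in red and the median of each list as a bar. Called genes of the immediate-early, cAMP, MAPK, cytokine, growth factor and ribosome lists lie on the side of falls, and those of the G2/M (10), DNA replication (2) and hypoxia (3) lists lie on the side of rises.

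Other lists held no called gene. By limma none of 35 genes of cholesterol and fatty acid synthesis, 16 heat shock genes, 44 genes of the ATF4 amino acid response, 30 ER chaperones, 23 p53 targets, 37 interferon-stimulated genes, 20 circadian clock genes, 16 histones or 19 steroidogenic genes passed the rule. At an unadjusted p under 0.05, 27 of these 240 list entries were higher and 22 lower, but the lists differed. Of the cholesterol and fatty acid genes 11 were higher and 1 lower (7 and 1 with an adjusted p under 0.1). Of the heat shock genes 4 were higher and 0 lower (2 and 0 with an adjusted p under 0.1). At any p, 15 of the 16 heat shock genes were higher and 1 lower, with a median of 0.11. Of the circadian clock genes 3 were higher and 6 lower, and of the p53 targets 0 were higher and 5 lower. HAS2, the hyaluronan synthase of the expanding cumulus, was at 88.2, 96.5 and 81.6 at LH4 and 10.1, 24.3 and 23.9 at LH8 without overlap, but was not called (adjusted p = 0.189). It was called down in 3 of 16 alternatives, namely with 16 added before log2, with intensity trend and robust estimation, and with a replicate block.

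Probe sets of a gene often disagreed, mostly among falls. Of 290 down-regulated probe sets with 1 gene symbol, 187 were not the brightest of their gene, and for 165 of these, in 155 genes, the brightest was not called and had a median log2 difference of -0.07. Among 184 up-regulated probe sets the brightest of the gene was not called for 66, and in neither direction was a brightest probe set called the opposite way. Examples from the largest falls were ZFC3H1, with -2.58 in a dimmer probe set (means of 265 at LH4 and 43.4 at LH8) and 0.18 in the brightest, ZBTB24 with -2.13 and -0.54, CNTLN with -1.91 and 0.63, and SLC35F5 with -1.83 and -0.28. Among the rises, PAOX had 3.19 and 0.50, TMOD3 1.88 and -0.13, DNASE1 1.60 and 0.04. CCSER2, VIRMA, CPEB4 and TASOR2 were new and lower at 8 h in dimmer probe sets (-1.79, -1.67, -1.23 and -1.22), with -0.06, 0.43, -0.87 and -0.02 in the brightest. IL11, BDNF and PLPP3 fell in dimmer probe sets as well (-2.26, -1.88 and -1.86), and ZFHX4 rose in its brightest probe set (means of 108 at LH4 and 311 at LH8) and by 1.61 on the log2 scale in a dimmer one.

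The 6 arrays of the step had median intensities of 51.2 to 54.5 at LH4 and 46.9 to 51.3 at LH8, and their 3' to 5' signal ratios of ACTB lay between 7.68 and 9.06. The part of these medians in the balance of rises and falls is given by the scaled counts above. Replicate 2 of LH8 correlated best with replicate 1 of LH4 (r = 0.960 over probe sets), and each other array of the step with one of its own group. KRT8, KRT18 and KRT19, the keratins of carcinoma cells, had means from 2831 to 5842 at LH4 and LH8. Not all carcinoma markers were bright. Of 14 listed, 10 were brighter than the median probe set, and EPCAM had means of 57.5 at LH4 and 75.0 at LH8. The summed intensity of 9 leukocyte markers was 85.9 to 111 at LH4 and 76.3 to 102 at LH8, with PTPRC at means of 7.80 and 13.4, and that of 8 endothelial markers 168 to 230 and 180 to 207, so these defining markers were near the low end of the scale and none was called. Of 10 fibroblast markers none was called, with sums of 14939 to 15769 and 16253 to 17924, which were not near the low end. Of these 10, 4 were higher at LH8 with complete separation (beside 2559 of 19775 genes) and 0 were lower (beside 2318). The part of these values in the results was not tested. The probe set of LHCGR, the gene of the receptor itself, stayed at means of 0.299 to 2.17 in all 6 groups and does not check the transfected receptor.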

How the data were processed

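RNA of 18 cultures was amplified as cDNA and hybridised to 1 array each. The authors deposited 1 table of linear intensities per probe set, already normalized. The labels name PLIER for this, the paper's methods name RMA, and which of them scaled the arrays is not given in the sources used here, so how the arrays were scaled was not settled here. The values are linear, with a lowest intensity of 0.0317. Intensities were analysed as log2(value + 1) with limma 3.58.1 in R 4.3.3, with all 18 arrays in 1 fit of 6 groups. The methods name ANOVA and a rank test, but 3 against 3 arrays cannot go below p = 0.1 in an exact test, so limma's adjusted p was used with the study's thresholds. Low intensities have larger log2 errors, and fold changes on the log2(value + 1) scale are understated there. On simulated data for LH8/LH4 with 54675 probe sets, changes were placed only in probe sets brighter than the median, 50 per fold. Of these, 34% of 2-fold changes, 98% of 3-fold and 100% of 5-fold changes were recovered, with 16 false calls. The simulated noise was independent between arrays, with no shift of array scale. The 16 therefore do not give the error among the 638 calls of the step. Recovery was not simulated for dimmer probe sets, which held 101 of the called rises and 192 of the called falls. Of the probe sets 41097 list 1 gene symbol, 1801 several and 11777 none, and only the first kind was named. Named were the 15 largest rises and falls among brighter probe sets, the 6 largest of each course, the called genes of each list and further list members where described. Fold changes rest on brightest probe sets unless a dimmer one is stated. The members and lists were chosen with earlier results of these data known. Figures were drawn with matplotlib 3.10.9. Array number limits the precision. Alternatives tried were other added constants, scaling, filters, thresholds, fits and arrays left out.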

Additional observations from a re-analysis of the deposited data

How the results depend on the processing

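Of 120 named genes or probe sets, 82 were called, 44 of these kept the call in every alternative that included them (31 in all 17, and 13 in 16, as dimmer probe sets enter fewer) and 38 lost it in at least 1, while none of the called ones reversed. Some uncalled genes gained a call, among them CDCA2 in 6 of 17 alternatives, NCAPG in 4 of 17 and HAS2 in 3 of 16. Calls up and down (238 and 400), returning (214), continuing (5) and new probe sets (118) changed most with the rule. With 16 added before log2 they were 127, 206, 135, 5 and 32. With only the brighter probe sets, rises, falls and new probe sets were 150, 246 and 46, and with 1 probe set per gene the 5 counts were 130, 129, 97, 1 and 41, where fewer probe sets were tested. From the LH4 and LH8 arrays alone, with fewer arrays for the spread, 86 rose and 159 fell. Without the fold and separation rules the counts were 964, 1302, 962, 77 and 535, and at an adjusted p under 0.05, 264 fell and 78 were new. Leaving out single arrays gave 188 to 256 rises, 245 to 439 falls (245 without LH4 replicate 2), 170 to 212 returning, 3 to 5 continuing (3 without LH4 replicate 1 or 2) and 83 to 187 new probe sets (187 without LH8 replicate 3). The cause was not tested.

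Counts over lists and over the 1 h response were put through the same alternatives after seeing the data. The count of probe sets up at 1 h that fell over the step, 53 as reported, was 35 with equal array medians, 21 with 1 probe set per gene and 117 without the fold and separation rules, and 44 to 54 with single arrays left out. Without those rules 11 immediate-early factors, 36 G2/M genes and 11 hypoxia genes were called, and from the LH4 and LH8 arrays alone 5 G2/M genes and 0 hypoxia genes (unadjusted counts were not computed in that fit). With single arrays left out the immediate-early factors ranged from 2 to 5 (2 without LH4 replicate 1 or 2), cytokines from 6 to 8, G2/M genes from 7 to 12 and hypoxia genes from 1 to 3 (1 without LH8 replicate 2). The cause was not tested. Log2 differences of uncalled brightest probe sets changed sign. CCSER2 had 0.039 with equal array medians. TASOR2 had 0.086 with equal array medians and from -0.077 to 0.024 with single arrays left out. DNASE1 had from -0.27 to 0.50 with single arrays left out.

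Replicate numbers do not pair the arrays, since deviations of same-numbered LH4 and LH8 arrays correlated at -0.003, -0.03 and 0.05. With the replicate block 224 probe sets rose, 391 fell, 203 returned, 5 continued and 122 were new, and the count of probe sets up at 1 h that fell was 49. Among the genes new and lower at 8 h, 12 of 15 were dimmer than the median probe set. The part of dim signal in these calls was not tested.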
